A study of Mus musculus with 12 samples.

Results

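The collagen genes were taken as every gene whose symbol is that of a collagen alpha chain (Col, a number, a and a number) on a probe set annotated with exactly 1 gene symbol. They numbered 44 of the 21314 genes measured and came from 47 probe sets, and the values of several probe sets of 1 gene were averaged. A further probe set, annotated with Col6a1 together with other symbols, was left out, and Col21a1 was not measured. RNA of the whole colon was hybridised to 12 Affymetrix arrays, 1 per mouse, from 4 groups of 3 mice aged 6 to 8 weeks. The groups were wild type given plain drinking water, wild type given dextran sulfate sodium (DSS) at 4% over 7 days, Parp1-/- given water and Parp1-/- given DSS under the same protocol. DSS is a sulfated polysaccharide that injures the colon lining when mice drink it, and Parp1 encodes a nuclear enzyme that responds to DNA damage by building poly(ADP-ribose). The labels name neither the strain nor the kind of Parp1 allele. The RNA came from colon tissue of many cell types, so fewer cells of a type and less RNA per cell cannot be told apart.

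Collagens are the triple-helical proteins of the extracellular matrix. Fibrillar chains such as type I and type III form the tensile fibrils of the submucosa and muscle layers, type VI forms beaded filaments between them, and FACIT chains (fibril-associated, with interrupted helices) sit on fibril surfaces. Type IV chains build the sheet-like network of basement membranes under epithelium, around smooth muscle cells and around vessels. In the colon they are made mainly by fibroblasts and smooth muscle, and they are followed in colitis because injury and repair remodel the matrix. By structure the 44 genes held 11 fibrillar, 9 FACIT, 6 basement membrane, 6 beaded filament, 4 transmembrane, 3 short-chain network and 2 multiplexin chains, the anchoring fibril chain Col7a1, and Col26a1 and Col28a1 as the other 2.

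Values are on a log scale, taken as log2 with a higher value standing for more RNA, and each probe set was centred on its median. Arrays can therefore be set against each other for 1 gene, while the levels of different genes cannot. Differences between groups are differences of group means in log2 units with the standard error of a limma model of all 12 arrays. A gene was called higher or lower, or said to have risen or fallen, where limma's p-value, adjusted by Benjamini-Hochberg over all 21314 genes, was under 0.05.

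Parp1 itself measured -0.41, 1.15 and 0.53 in wild type with water, 0.01, 0.51 and 0.77 with DSS, and between -0.22 and 0.03 on the 6 Parp1-/- arrays. The Parp1-/- means were lower by 0.47 ± 0.33 in water and 0.52 ± 0.33 in DSS, with limma adjusted p-values of 0.273 and 0.872. The value of the array labelled wild-type water 1 lay below all 6 Parp1-/- arrays. No source used here says where the probe set lies relative to the disrupted part of the gene, so Parp1 does not settle the labels, and the group names are those of the labels.

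Several arrays stood apart from their group. On wild-type water 1 to 3 and wild-type DSS 1, the mean of 13 housekeeping genes lay between -1.88 and -1.13, against -0.01 to 0.42 on the other 8 arrays. For 1056 genes of olfactory and vomeronasal receptors, the median on the same 4 arrays lay between 0.38 and 0.42, against -0.12 to 0.05 elsewhere, and the mean of 10 colon epithelium markers between -1.67 and -0.68, against -0.12 to 0.29. Separately, the mean of 17 smooth muscle markers was 2.49 and 2.40 on Parp1-/- water 2 and 3 and 2.48 on Parp1-/- DSS 1, and below 0 on each of the other 9 arrays. Because values are centred, they do not show whether a marker is at or near 0 in a group.

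**Figure D1:**
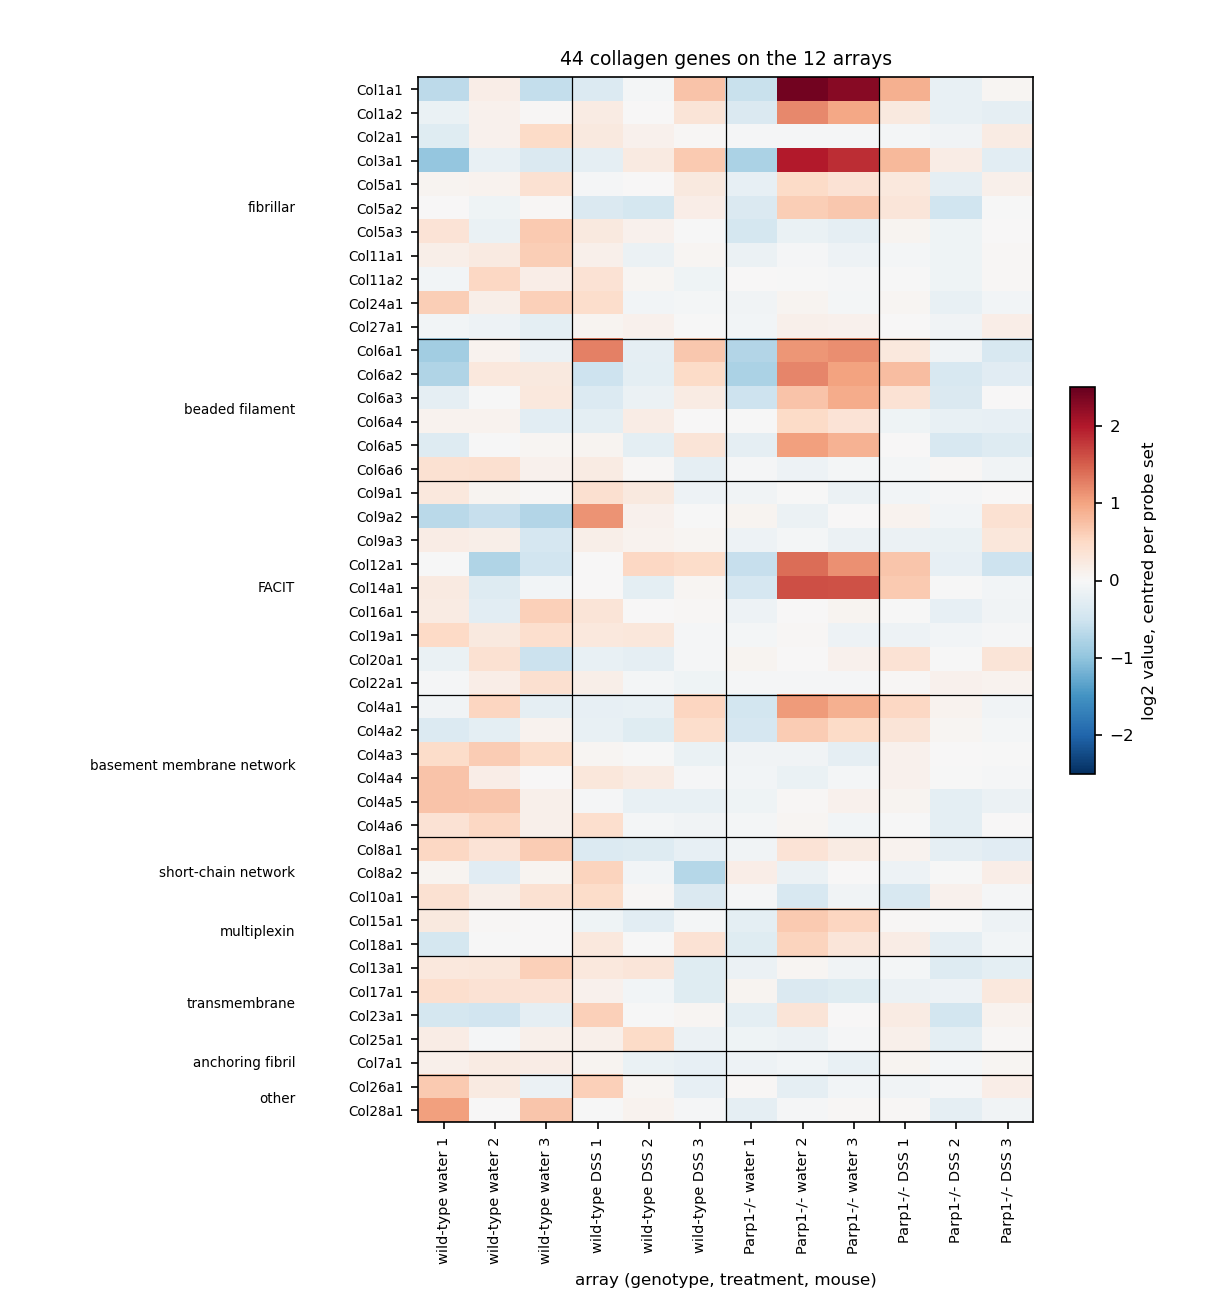
Centred log2 values of the 44 collagen genes (rows, ordered by class) on the 12 arrays (columns, by group), with red for values above a gene's median and blue for values below it. The darkest cells are Col1a1, Col3a1 and Col14a1 on Parp1-/- water 2 and 3, where Col1a1 measured 2.41 and 2.28 against -0.56 on Parp1-/- water 1.

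After DSS, the wild-type colon had more RNA of Col9a2 and less of Col8a1, Col4a5 and Col4a3 than in water, and no fibrillar, beaded filament, transmembrane, multiplexin or anchoring fibril collagen was called. Col9a2 encodes a chain of the FACIT collagen IX, Col8a1 the main chain of a short-chain network collagen, and Col4a3 and Col4a5 chains of a basement membrane network. These were 4 of 44 collagens, or 9.09%, where 13.0% of all genes were called. Called higher was 1 collagen, where 8.89% of all genes were, and called lower were 3, where 4.16% of all genes were. The groups did not overlap in 11 of 44 collagens, 4 higher and 7 lower, and in 23.6% of all genes. The median difference was -0.08 over the collagens and -0.05 over all genes, with 16 collagens above 0 and 28 below. The count of 4 was 0 under quantile normalization or when only the 2 groups were fitted, where 0.971% and 3.01% of all genes were called. It was 2 without wild-type water 1, wild-type DSS 2 or wild-type DSS 3, where 10.4%, 5.68% and 8.03% of all genes were. Without wild-type DSS 1 it was 6, where 32.2% of all genes were called.

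In the Parp1-/- colon, 0 of 44 collagens were called between DSS and water by limma, where 0.00938% of all genes were, or 2 genes. Unadjusted, 2 of 44 collagens passed 0.05, both type VI chains, beside 609 of all 21314 genes. Col6a5 was lower by 0.79 ± 0.30 and Col6a4 by 0.43 ± 0.18 (limma adjusted p of 1 for both). The groups did not overlap in 6 of 44, 5 higher (Col4a3, Col4a4, Col5a3, Col7a1 and Col22a1) and 1 lower (Col6a4), against 12.5% of all genes. The median difference was -0.05 over the collagens and 0.01 over all genes. With array weights in limma, 7 collagens were called, all lower, where 6.84% of all genes were called, 4.03% lower and 2.8% higher.

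Between genotypes in water, Col4a3, Col28a1, Col17a1 and Col19a1 were lower in Parp1-/-. These were 4 of 44 collagens, where 31.6% of all genes were called. Called lower were 4 collagens, where 13.7% of all genes were, and called higher were 0, where 17.9% of all genes were. The groups did not overlap in 15 of 44 collagens, 2 higher (Col9a2 and Col27a1) and 13 lower, and in 55.4% of all genes. The median difference was -0.10 over the collagens and -0.07 over all genes. Housekeeping genes moved with the same contrast, with 11 of 13 called higher and a median difference of 1.63, as did the receptor genes, with 392 of 1056 called lower and a median of -0.52. With each array's receptor median added to the model, none of the 4 was called, where 2.15% of all genes were, and that median did not overlap between the water groups. Their differences were then -0.50 ± 0.22 for Col4a3, -0.70 ± 0.41 for Col28a1, -0.10 ± 0.27 for Col17a1 and -0.18 ± 0.23 for Col19a1. Without Parp1-/- water 1, limma called 8 collagens higher and 2 lower, where 16.2% and 8.75% of all genes were. Without Parp1-/- water 2 or 3 it called 1 collagen, where 13.8% and 14.2% of all genes were called.

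Between genotypes in DSS, limma called 0 of 44 collagens, where 0.0% of all genes were called. An unadjusted p under 0.05 was reached by 0 collagens and by 593 of all 21314 genes. The groups did not overlap in 2 of 44 collagens, Col20a1 with a difference of 0.37 ± 0.22 and Col16a1 with -0.22 ± 0.21, against 6.55% of all genes. The differences ran from -0.64 (Col6a1) to 0.37 (Col20a1). For the difference of the DSS responses between genotypes, limma called 0 of 44 collagens, where 2.54% of all genes were called. An unadjusted p under 0.05 was reached by 5 of 44 collagens (Col4a3, Col17a1, Col9a2, Col6a5 and Col7a1) and by 3737 of all 21314 genes. Without Parp1-/- water 1, Col1a1, Col1a2 and Col3a1 were called for a lower response in Parp1-/-, where 2.08% of all genes were called in either direction, and without wild-type DSS 1, Col4a3 was called for a higher one, where 14.9% were. With array weights, 8 collagens were called in each of these 2 comparisons, where 6184 of all genes were in the first and 7675 in the second. The 5 comparisons share arrays, the wild-type water arrays in particular entering the DSS contrast in wild type, the genotype contrast in water and the contrast of the responses.

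**Figure D2:**
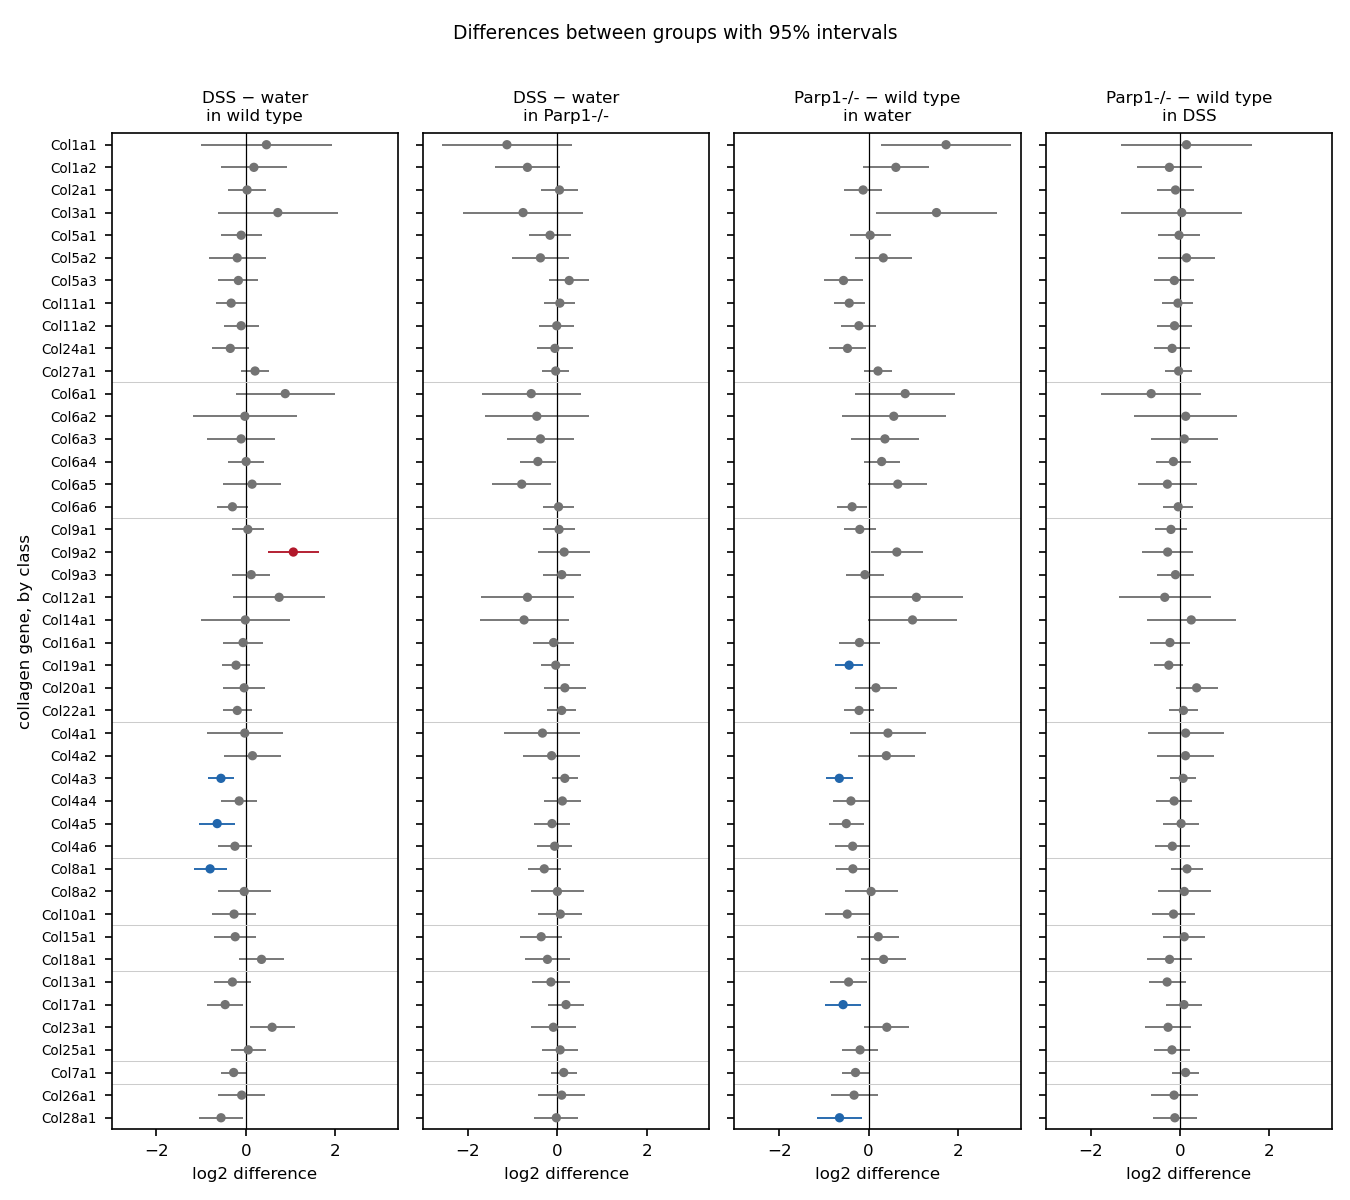
Log2 differences of group means (points) with 95% intervals of limma (lines) for the 44 collagens, by class from fibrillar at the top to the other chains at the bottom, in 4 comparisons, with genes called higher in red and lower in blue. The widest intervals are those of Col1a1 and Col3a1, and the points for Parp1-/- against wild type in DSS all lie between -0.64 and 0.37.

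Among the fibrillar chains, Col1a1 and Col3a1 reached the highest values above their medians of any collagen. Col1a1, which encodes the main chain of type I collagen, measured -0.65, 0.17 and -0.59 in wild type with water and -0.33, -0.05 and 0.71 with DSS, and -0.56, 2.41 and 2.28 in Parp1-/- with water and 0.90, -0.18 and 0.05 with DSS. Parp1-/- water 2 and 3 stood above all other arrays, Parp1-/- DSS 1 came next, and Parp1-/- water 1 lay within the range of wild-type water. Col3a1, the single chain of type III collagen, which mixes with type I in fibrils of the gut wall, measured -0.98, -0.19 and -0.36 in wild type with water and -0.23, 0.22 and 0.65 with DSS, and -0.79, 1.98 and 1.84 in Parp1-/- with water and 0.82, 0.19 and -0.26 with DSS. The same 3 arrays were the highest, and every pair of groups overlapped.

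Neither gene was called in any comparison. In wild type, Col1a1 was 0.46 ± 0.67 after DSS (95% interval -1.0 to 1.93) and Col3a1 0.72 ± 0.61 (-0.63 to 2.07), and in Parp1-/- the differences were -1.12 ± 0.67 (-2.59 to 0.34) and -0.76 ± 0.61 (-2.11 to 0.59). The interval of each spans 0 and also differences of over 1 log2 unit. Between genotypes in water, Col1a1 was 1.73 ± 0.67 (0.27 to 3.20, limma adjusted p = 0.0662) and Col3a1 1.52 ± 0.61 (0.17 to 2.87, limma adjusted p = 0.0771). Without Parp1-/- water 1 the water differences were 2.70 ± 0.39 for Col1a1 and 2.42 ± 0.36 for Col3a1, with limma adjusted p-values of 0.00198 and 0.00217, so that 1 array decided both calls. That fit keeps only Parp1-/- water 2 and 3, whose smooth muscle marker means were 2.49 and 2.40. Parp1-/- water 1 itself, at -0.56 for Col1a1 and -0.79 for Col3a1, lay below the wild-type water means of -0.36 and -0.51. Between genotypes in DSS, the differences were 0.15 ± 0.67 for Col1a1 and 0.04 ± 0.61 for Col3a1.

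Col1a2, the second chain of type I collagen, measured -0.16, 0.11 and 0.03 in wild type with water and 0.20, 0.00 and 0.33 with DSS, and -0.37, 1.21 and 0.97 in Parp1-/- with water and 0.24, -0.19 and -0.23 with DSS. It is the mean of 2 probe sets that disagreed. In Parp1-/- water, one measured -0.29, 2.12 and 1.77 and the other -0.44, 0.30 and 0.17. Their differences from wild type in water were 1.44 ± 0.52 and -0.22 ± 0.26, and the averaged gene was 0.61 ± 0.34 (limma adjusted p = 0.170). After DSS, Col1a2 was 0.18 ± 0.34 in wild type and -0.66 ± 0.34 in Parp1-/-, and between genotypes in DSS it was -0.24 ± 0.34.

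The promoters of Col1a2 and Col3a1 are shown because these chains were high on the same arrays. RefSeq windows of 300 bases (250 before the start of the gene and 50 after, GRCm38.p6) were listed for 35 of the 44 collagens, in 38 windows, and not for Col1a1, Col2a1, Col4a3, Col5a2, Col9a3, Col12a1, Col14a1, Col22a1 and Col26a1. Capitals mark CCAAT and GGGCGG in the Col1a2 window (chr6:4505368-4505667, plus strand) and TATAAA in the Col3a1 window (chr1:45311288-45311587, plus strand), each searched on both strands (ATTGG is CCAAT read on the other strand).
Col1a2: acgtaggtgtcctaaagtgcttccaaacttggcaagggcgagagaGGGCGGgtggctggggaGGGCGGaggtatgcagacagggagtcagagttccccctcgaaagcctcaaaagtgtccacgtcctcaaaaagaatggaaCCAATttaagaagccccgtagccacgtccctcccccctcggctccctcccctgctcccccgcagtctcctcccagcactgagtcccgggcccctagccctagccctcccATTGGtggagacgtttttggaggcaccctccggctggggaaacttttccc
Col3a1: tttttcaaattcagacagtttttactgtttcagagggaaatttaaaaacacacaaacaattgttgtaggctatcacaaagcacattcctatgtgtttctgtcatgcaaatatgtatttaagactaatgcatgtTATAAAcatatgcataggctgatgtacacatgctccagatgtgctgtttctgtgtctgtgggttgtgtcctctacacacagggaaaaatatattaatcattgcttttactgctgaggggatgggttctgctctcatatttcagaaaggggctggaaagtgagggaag
The Col1a2 window held CCAAT 2 times, GGGCGG 2 times and TATAAA 0 times, and the Col3a1 window TATAAA 1 time and the others 0 times. CCAAT was in 34.2% of collagen windows and 37.4% of all 32851 windows, TATAAA in 13.2% and 13.6%, and GGGCGG in 60.5% and 35.7%. A match of these letters is a description of the window and not a bound site.

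Of the minor fibrillar chains, Col5a2, which joins type V collagen into type I fibrils, was high on Parp1-/- water 2 and 3 (0.62 and 0.66) and measured -0.35 on Parp1-/- water 1 and between -0.49 and 0.31 on the other 9 arrays. Col5a1, its partner chain, measured 0.48 and 0.37 on the same 2 arrays, from 2 probe sets of which one gave 0.99 and 0.75 and the other -0.02 and -0.01. Col5a3 measured 0.35, -0.17 and 0.66 in wild-type water and -0.44, -0.17 and -0.23 in Parp1-/- water, a difference of -0.56 ± 0.20 (limma adjusted p = 0.0543) with groups that overlapped. Col11a1 and Col24a1, chains better known from cartilage and bone, were lower in Parp1-/- than in wild-type water by 0.43 ± 0.16 and 0.47 ± 0.19 without overlap and missed the threshold (limma adjusted p = 0.0556 and 0.0728). Col27a1 moved little, between -0.24 and 0.17 over the 12 arrays, and its 2 differences against wild-type water were 0.21 ± 0.14 each, without overlap and uncalled. Col2a1 and Col11a2 differed by at most 0.22 in any of the comparisons between 2 groups.

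**Figure D3:**
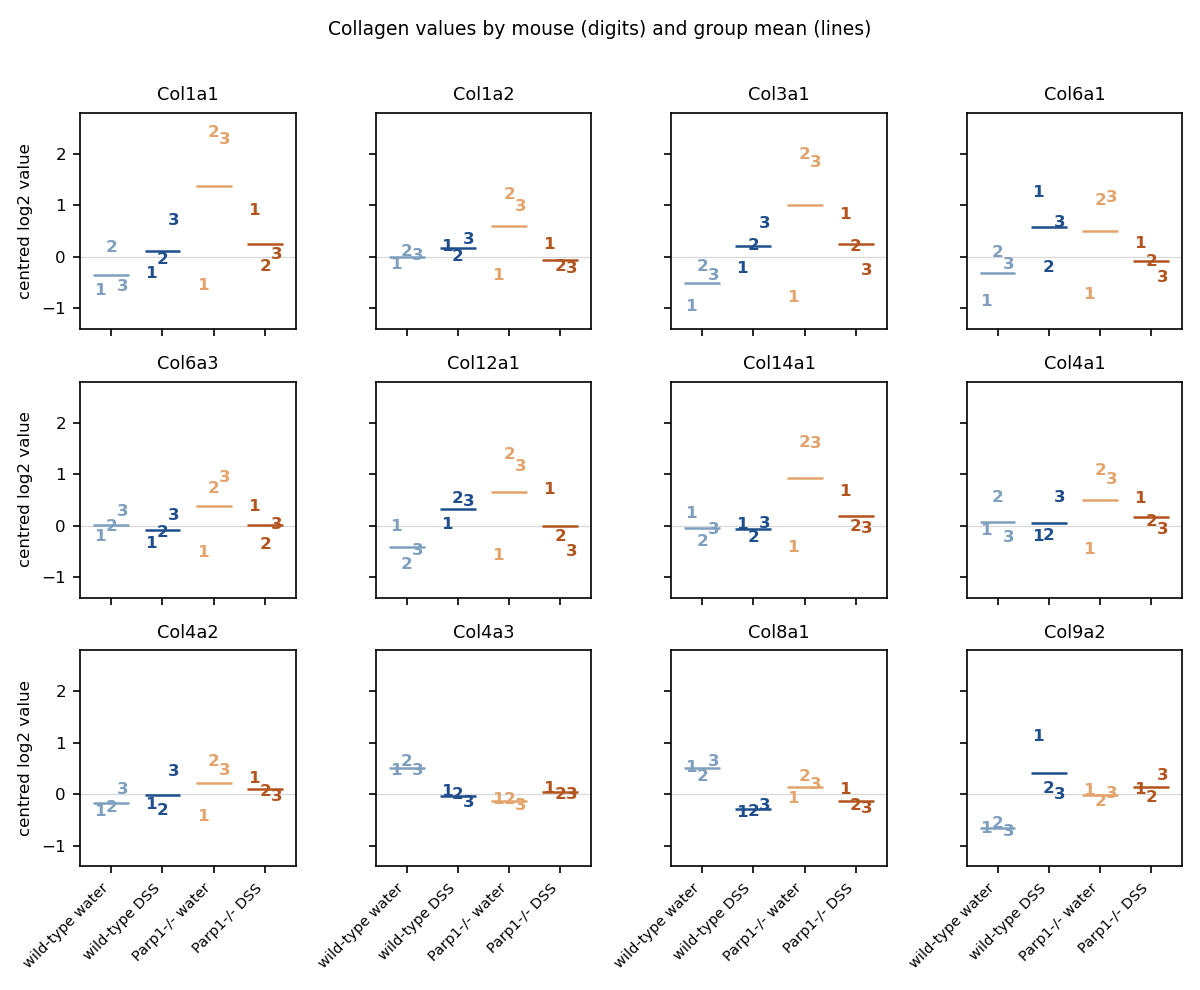
Centred log2 values (vertical axis) of 12 collagens in the 4 groups (horizontal axis), with a digit for each mouse and a line for each group mean. For Col1a1, Col1a2, Col3a1, Col6a3, Col12a1, Col14a1, Col4a1 and Col4a2, the digits 2 and 3 of Parp1-/- water lie at the top and its digit 1 near the bottom, while for Col4a3 the 3 wild-type water mice lie above all others.

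The beaded filament chains of type VI collagen, which link fibrils to cells and basement membranes, differed in which arrays were highest. Parp1-/- water 2 and 3 were the 2 highest for Col6a2, Col6a3, Col6a4 and Col6a5, and Parp1-/- DSS 1 came next for Col6a2 and Col6a3. Col6a1 measured -0.87, 0.08 and -0.15 in wild type with water and 1.25, -0.22 and 0.67 with DSS, and -0.74, 1.10 and 1.15 in Parp1-/- with water and 0.26, -0.09 and -0.40 with DSS. The high value of wild-type DSS 1 came from 1 of the gene's 2 probe sets, at 2.48 against 0.02 for the other. Col6a2 measured -0.75, 0.27 and 0.25 in wild type with water and -0.52, -0.25 and 0.48 with DSS, and -0.78, 1.23 and 1.01 in Parp1-/- with water and 0.77, -0.40 and -0.28 with DSS. Its 3 highest arrays were those of Col1a1, with Parp1-/- DSS 1 above both other mice of its group by over 1, and its lowest was Parp1-/- water 1.

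Col6a3, whose chain completes the classical type VI trimer with those of Col6a1 and Col6a2, measured -0.22, -0.02 and 0.27 in wild type with water and -0.34, -0.14 and 0.20 with DSS, and -0.52, 0.72 and 0.93 in Parp1-/- with water and 0.36, -0.37 and 0.02 with DSS. Col6a5, an alternative to Col6a3, measured -0.32, -0.02 and 0.05 in wild type with water and 0.07, -0.24 and 0.31 with DSS, and -0.23, 1.03 and 0.87 in Parp1-/- with water and 0.02, -0.40 and -0.32 with DSS. The groups overlapped in every comparison of both genes. In water, the genotype differences were 0.82 ± 0.51 for Col6a1, 0.56 ± 0.53 for Col6a2, 0.37 ± 0.34 for Col6a3 and 0.65 ± 0.30 for Col6a5, none called (limma adjusted p from 0.110 to 0.407). Without Parp1-/- water 1, Col6a1 (1.44 ± 0.41, limma adjusted p = 0.0301), Col6a3 (0.81 ± 0.26, adjusted p = 0.0432) and Col6a5 (1.05 ± 0.22, adjusted p = 0.0103) were called.

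After DSS in wild type, Col6a1 was 0.88 ± 0.51 and the other 5 type VI chains lay between -0.30 (Col6a6) and 0.14 (Col6a5), none called. Col6a4, a further alternative to Col6a3, measured -0.02, 0.48 and 0.34 in Parp1-/- mice with water and -0.11, -0.18 and -0.20 with DSS, so that every DSS mouse lay below every water mouse. The highest values of Col6a6 were 0.39 on wild-type water 1 and 2, and it was lower in Parp1-/- water by 0.37 ± 0.15 without overlap (limma adjusted p = 0.0858).

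Among the FACIT chains, Col12a1 and Col14a1 had the same 3 highest arrays as Col1a1, and Col9a2 did not. Col12a1, whose product coats type I fibrils under tension, measured -0.02, -0.76 and -0.48 in wild type with water and 0.02, 0.52 and 0.46 with DSS, and -0.58, 1.39 and 1.15 in Parp1-/- with water and 0.69, -0.21 and -0.51 with DSS. Each wild-type DSS mouse lay above each wild-type water mouse, the nearest at 0.02 against -0.02, and the difference of 0.75 ± 0.47 was not called (limma adjusted p = 0.309). Col14a1, a related fibril-coating chain, measured 0.23, -0.32 and -0.07 in wild type with water and 0.02, -0.24 and 0.04 with DSS, and -0.42, 1.62 and 1.59 in Parp1-/- with water and 0.65, -0.02 and -0.06 with DSS. Its groups overlapped in every comparison.

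In water, the genotype differences were 1.07 ± 0.47 for Col12a1 (limma adjusted p = 0.0977) and 0.98 ± 0.45 for Col14a1 (adjusted p = 0.111). Without Parp1-/- water 1 they were 1.68 ± 0.35 and 1.66 ± 0.25, with limma adjusted p-values of 0.00949 and 0.00243. In Parp1-/- mice, DSS against water gave -0.66 ± 0.47 and -0.74 ± 0.45, and in DSS the genotype differences were -0.34 ± 0.47 and 0.25 ± 0.45, none called.

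Col9a2, a chain of collagen IX, which coats type II fibrils of cartilage, measured -0.67, -0.57 and -0.72 in wild type with water and 1.13, 0.11 and -0.01 with DSS, and 0.07, -0.15 and 0.01 in Parp1-/- with water and 0.09, -0.06 and 0.38 with DSS. The 3 wild-type water mice lay below all 9 others, and wild-type DSS 1 stood above both other mice of its group by over 1. The rise after DSS in wild type was 1.06 ± 0.26, or 2.09-fold (limma adjusted p = 0.0226). Without wild-type DSS 1 it was 0.70 and still called, and it was not called without wild-type water 1 or 3. Its partners Col9a1 and Col9a3 differed by 0.05 ± 0.16 and 0.12 ± 0.19 in the same comparison. The gene was 0.63 ± 0.26 in Parp1-/- against wild-type water (limma adjusted p = 0.0829).

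Col19a1, a FACIT chain known from smooth muscle, measured 0.51, 0.24 and 0.42 in wild type with water and 0.27, 0.28 and -0.04 with DSS, and -0.05, 0.03 and -0.12 in Parp1-/- with water and -0.13, -0.07 and -0.03 with DSS. All 6 Parp1-/- mice lay below the 3 wild-type water mice. The fall in Parp1-/- water was by 0.43 ± 0.15 (limma adjusted p = 0.0425), and it was called in 3 of 14 alternative settings. Col20a1 measured -0.18, -0.23 and -0.02 in wild-type DSS and 0.37, -0.00 and 0.32 in Parp1-/- DSS, 1 of the 2 collagens whose genotypes did not overlap in DSS. Col16a1 was the other, at 0.33, 0.00 and 0.03 against -0.02, -0.20 and -0.09. Col22a1 stayed between -0.10 and 0.41 on all arrays.

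Of the basement membrane chains, Col4a3 and Col4a5 were called lower in at least 1 comparison, and Col4a1, Col4a2, Col4a4 and Col4a6 were called in none. Col4a1 measured -0.10, 0.54 and -0.23 in wild type with water and -0.21, -0.19 and 0.55 with DSS, and -0.46, 1.07 and 0.90 in Parp1-/- with water and 0.52, 0.08 and -0.08 with DSS. Col4a2, whose chain joins that of Col4a1 in the network common to most basement membranes, measured -0.34, -0.25 and 0.09 in wild type with water and -0.19, -0.31 and 0.45 with DSS, and -0.42, 0.64 and 0.47 in Parp1-/- with water and 0.32, 0.05 and -0.05 with DSS. In both genes Parp1-/- water 2 and 3 were the highest arrays and the groups overlapped in every comparison. The genotype differences in water were 0.43 ± 0.39 and 0.40 ± 0.29, those after DSS in wild type -0.02 ± 0.39 and 0.15 ± 0.29, those after DSS in Parp1-/- -0.33 ± 0.39 and -0.12 ± 0.29, and those between genotypes in DSS 0.13 ± 0.39 and 0.12 ± 0.29, none called by limma.

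Col4a1 and Col4a2 are neighbours read in opposite directions, and their windows are shown because they share bases and the genes were high on the same arrays. The Col4a1 window is chr8:11312777-11313076 on the minus strand and the Col4a2 window chr8:11312555-11312854 on the plus strand (RefSeq, GRCm38.p6). Capitals mark the 78 bases that both windows hold, on opposite strands.
Col4a1: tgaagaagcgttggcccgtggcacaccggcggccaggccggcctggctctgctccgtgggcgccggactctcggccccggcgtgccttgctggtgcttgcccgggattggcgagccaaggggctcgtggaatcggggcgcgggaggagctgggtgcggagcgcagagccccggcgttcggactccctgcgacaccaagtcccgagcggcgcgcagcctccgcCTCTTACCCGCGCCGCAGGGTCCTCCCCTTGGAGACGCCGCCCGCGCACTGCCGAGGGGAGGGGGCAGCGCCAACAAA
Col4a2: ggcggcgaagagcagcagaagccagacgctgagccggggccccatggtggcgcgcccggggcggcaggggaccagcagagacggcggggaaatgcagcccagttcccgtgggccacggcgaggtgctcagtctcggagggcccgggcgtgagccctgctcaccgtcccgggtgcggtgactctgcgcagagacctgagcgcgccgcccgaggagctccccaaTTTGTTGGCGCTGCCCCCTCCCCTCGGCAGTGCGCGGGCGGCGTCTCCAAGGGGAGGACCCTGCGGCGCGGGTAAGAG
On either strand, CCAAT was found 1 time in each window, GGGCGG 1 time in the Col4a1 window and 3 times in the Col4a2 window, and TATAAA 0 times in either. In all, 15 of the 44 collagens lay next to another collagen, in 8 neighbouring pairs of the RefSeq gene table. Besides Col4a1 with Col4a2 these were Col4a3 with Col4a4, Col4a5 with Col4a6, Col3a1 with Col5a2, Col6a1 with Col6a2, Col6a6 with Col6a5, Col6a5 with Col6a4, and Col9a1 with Col19a1.

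Col4a3, a chain of the second type IV network, best known from kidney and lung, measured 0.47, 0.63 and 0.45 in wild type with water and 0.05, -0.00 and -0.16 with DSS, and -0.09, -0.09 and -0.22 in Parp1-/- with water and 0.12, 0.00 and -0.01 with DSS. The 3 wild-type water mice lay above all 9 others. Col4a3 fell after DSS in wild type by 0.55 ± 0.14, or 1.47-fold (limma adjusted p = 0.0216), and was lower in Parp1-/- than in wild-type water by 0.65 ± 0.14, or 1.57-fold (adjusted p = 0.00590). These 2 differences share the wild-type water mice. The fall after DSS was called in 8 of 13 alternative settings and lost without wild-type DSS 2 or 3, among others, at differences between -0.60 and -0.46. The water difference was called in 12 of 14, at -0.69 to -0.50. In Parp1-/- mice, DSS was above water by 0.17 ± 0.14 without overlap and uncalled, and the difference of the responses, 0.73 ± 0.19, was not called (limma adjusted p = 0.0766).

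Col4a5, another chain of that network, measured 0.71, 0.69 and 0.12 in wild type with water and -0.02, -0.19 and -0.18 with DSS, and -0.10, 0.02 and 0.10 in Parp1-/- with water and 0.06, -0.23 and -0.15 with DSS. Its fall after DSS in wild type was by 0.64 ± 0.18 (limma adjusted p = 0.0392), and the genotype difference in water was -0.50 ± 0.18 (adjusted p = 0.0541). The call after DSS was lost without any 1 of wild-type water 1, wild-type water 2, wild-type DSS 2 or wild-type DSS 3. Col4a4 and Col4a6, the remaining chains, were lower in Parp1-/- than in wild-type water by 0.39 ± 0.19 and 0.36 ± 0.18, each without overlap and uncalled (limma adjusted p = 0.116 and 0.131).

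The receptor genes for smell and pheromones moved with these falls. In wild type, their median was -0.32 after DSS, with 99 of 1056 called lower and 1 higher, while 8 of 13 housekeeping genes were called higher with a median of 1.27. With each array's receptor median added to the model, an alternative planned with the arrays that stood apart in view, Col4a3 and Col4a5 were not called after DSS in wild type, at differences of -0.46 ± 0.16 and -0.59 ± 0.23, nor was Col4a3 in water. In the same fit of DSS in wild type, Col8a1 was called lower and Col9a2 and Col8a2 higher, where 10.5% of all genes were called.

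Of the short-chain network chains, Col8a1, a chain of vessel walls and the cornea, measured 0.52, 0.35 and 0.64 in wild type with water and -0.34, -0.33 and -0.21 with DSS, and -0.09, 0.35 and 0.20 in Parp1-/- with water and 0.09, -0.23 and -0.27 with DSS. The wild-type groups were far apart for their spread, with every DSS mouse below every water mouse, and the Parp1-/- groups overlapped. Col8a1 fell after DSS in wild type by 0.80 ± 0.17, or 1.74-fold (limma adjusted p = 0.0110), and was called in 11 of 13 alternative settings. In Parp1-/- mice the difference was -0.29 ± 0.17, and the difference of the responses, 0.51 ± 0.24, was not called (limma adjusted p = 0.295). Col8a2 ranged from -0.72 on wild-type DSS 3 to 0.56 on wild-type DSS 1. Col10a1, the chain of growth plate cartilage, was lower in Parp1-/- than in wild-type water by 0.48 ± 0.22 without overlap (limma adjusted p = 0.115).

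The multiplexins Col15a1 and Col18a1, basement membrane proteoglycans around muscle and vessels, were high on Parp1-/- water 2 and 3. Col15a1 measured 0.65 and 0.53 there and -0.24 on Parp1-/- water 1, and Col18a1 0.55 and 0.31 there and -0.30. For Col18a1, wild-type DSS 3 at 0.36 lay above Parp1-/- water 3. Col18a1 was 0.35 ± 0.23 after DSS in wild type and 0.34 ± 0.23 in Parp1-/- against wild-type water, and Col15a1 -0.24 ± 0.21 and 0.22 ± 0.21, none called.

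Among the transmembrane collagens, Col17a1, an epithelial chain of hemidesmosomes, measured 0.41, 0.36 and 0.34 in wild type with water and 0.11, -0.08 and -0.30 with DSS, and 0.08, -0.37 and -0.31 in Parp1-/- with water and -0.14, -0.13 and 0.27 with DSS. The wild-type water mice lay above all others. Col17a1 was lower in Parp1-/- water by 0.57 ± 0.18, or 1.48-fold (limma adjusted p = 0.0346), and was called in 4 of 14 alternative settings. After DSS in wild type it was -0.46 ± 0.18 (adjusted p = 0.116). Markers of squamous epithelium, which also expresses Col17a1, had a mean of 0.21 to 0.33 in wild-type water and -0.21 to 0.05 in Parp1-/- water. That mean was 0.26, -0.07 and -0.15 in wild-type DSS. In the water contrast 3 of 10 were called lower, where 13.7% of all genes were. Of the colon epithelium markers 8 of 10 were called higher, where 17.9% of all genes were. The part of either list in the Col17a1 difference was not tested.

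Col23a1, another membrane collagen, went the other way in wild type, from -0.44, -0.47 and -0.23 in water to 0.59, -0.01 and 0.05 in DSS. The difference of 0.59 ± 0.23 was not called (limma adjusted p = 0.114). Col13a1 was lower in Parp1-/- than in wild-type water by 0.45 ± 0.19 without overlap (limma adjusted p = 0.0884), and Col25a1 ranged from -0.25 to 0.47. Col7a1, the anchoring fibril chain that ties epithelial basement membrane to stroma, measured 0.13, 0.20 and 0.18 in wild type with water and 0.07, -0.16 and -0.21 with DSS, and -0.13, -0.06 and -0.18 in Parp1-/- with water and 0.08, -0.04 and 0.04 with DSS. Its DSS differences were -0.27 ± 0.13 in wild type and 0.15 ± 0.13 in Parp1-/-, each without overlap and uncalled.

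Col28a1, a chain known from peripheral nerve, measured 1.03, 0.01 and 0.69 in wild type with water and -0.01, 0.09 and -0.02 with DSS, and -0.23, -0.03 and 0.04 in Parp1-/- with water and 0.02, -0.22 and -0.08 with DSS. Wild-type water 1 and 3 were high and wild-type water 2 lay within the other groups. Col28a1 was lower in Parp1-/- water by 0.65 ± 0.22 (limma adjusted p = 0.0469), with groups that overlapped, and the call was lost without wild-type water 1 or 3 and without any of the 3 Parp1-/- water mice. Col26a1 ranged from -0.23 to 0.65, highest on wild-type water 1, followed by wild-type DSS 1.

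The median range between the 3 mice of a group over the 44 collagens was 0.27 in Parp1-/- water and 0.33 in Parp1-/- DSS, against 0.43 for wild-type mice with water and 0.44 for those with DSS, while the collagens of the widest range were in Parp1-/- water. There, the 3 mice spanned over 1 log2 unit for 12 of 44 collagens, or 27.3%, and for 4.32% of all genes. The share was 4.55% of collagens and 18.1% of all genes among wild-type mice with water, 11.4% and 31.4% among those with DSS, and 9.09% and 4.9% among Parp1-/- mice with DSS. Parp1-/- water 1 lay below both other mice of its group by over 1 for 10 collagens (Col1a1, Col1a2, Col3a1, Col4a1, Col6a1, Col6a2, Col6a3, Col6a5, Col12a1 and Col14a1) and for 1.91% of all genes. The 2 highest of all 12 arrays were Parp1-/- water 2 and 3 for 13 collagens, or 29.5%, and for 8.15% of all genes. For 7 of them, Col1a1, Col3a1, Col5a2, Col6a2, Col6a3, Col12a1 and Col14a1, the next highest was Parp1-/- DSS 1. Another 20 collagens, or 45.5%, had their 2 highest arrays among wild-type water 1 to 3 and wild-type DSS 1, as did 41.0% of all genes.

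Marker lists of other cells were also high on Parp1-/- water 2 and 3 relative to Parp1-/- water 1. The mean of the 17 smooth muscle markers was -0.36, 2.49 and 2.40 in Parp1-/- water, that of 12 fibroblast markers -0.67, 1.19 and 0.99, and that of 8 endothelium markers -0.37, 1.0 and 0.71. The mean of 5 adipocyte markers was -1.68, 0.32 and -0.02 on the same arrays, between -1.42 and -0.52 for wild-type mice with water, between -1.01 and 0.93 for those with DSS and between 0.17 and 0.99 in Parp1-/- DSS. The fibrillar mean over 11 genes was -0.28, 0.60 and 0.53 on these arrays, and the beaded filament mean over 6 genes -0.39, 0.74 and 0.71. Parp1-/- DSS 1 had smooth muscle markers as high as these, at 2.48, with lower fibroblast markers (0.69), endothelium markers (0.32) and fibrillar collagens (0.23). The other 2 Parp1-/- DSS mice had smooth muscle means of -0.15 and -0.05 and fibrillar means of -0.14 and 0.01. With the smooth muscle mean of each array as a covariate, 1 collagen (Col4a3, lower) was called in the water contrast, where 7.83% of all genes were called. Leaving out the 3 arrays of high smooth muscle markers leaves 1 mouse in Parp1-/- water, which is then assumed to vary like the other groups. In that fit limma called 0 collagens and 0.69% of all genes, and Col4a3 was -0.61 ± 0.25. The part of fibroblasts, vessels and adipocytes was not tested.

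**Figure D4:**
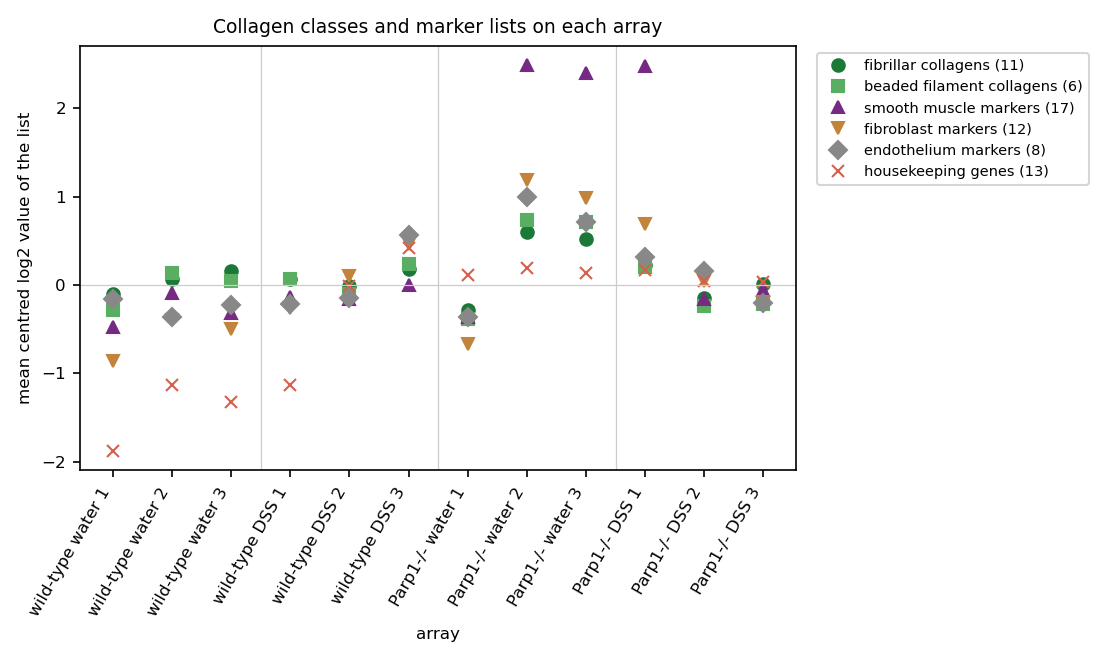
Mean centred log2 value (vertical axis) of 2 collagen classes and 4 marker lists on each of the 12 arrays (horizontal axis), with the number of genes of each list in the key. Smooth muscle markers reach 2.49, 2.40 and 2.48 on Parp1-/- water 2 and 3 and Parp1-/- DSS 1, the fibrillar mean reaches 0.60, 0.53 and 0.23 there, and housekeeping genes lie lowest on wild-type water 1 to 3 and wild-type DSS 1.

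Genes that make, process, cross-link or bind collagen were counted in the same fits, and of 54 such genes listed, 48 were measured. In Parp1-/- against wild-type water, 12 of 48 rose, where 17.9% of all genes did, and 1 fell, where 13.7% did. Together these were 27.1%, beside 31.6% of all genes, and the median difference of the 48 was 0.45. Those called higher included the folding and hydroxylation genes Ppib, P4hb, Plod1, P3h2 and Mia3, the receptor chains Itga1, Itga2 and Itgb1, the fibril-binding proteoglycans Dcn and Prelp, the propeptide protease Bmp1, and Tgfbr1. Ppib, a prolyl isomerase of procollagen folding, measured -2.00, -1.65 and -2.29 in wild-type water and 0.43, 1.32 and 1.24 in Parp1-/- water, a rise of 2.98 ± 0.47 (limma adjusted p = 0.00160). Dcn, the gene of decorin, a proteoglycan on type I fibrils, measured -2.84, -1.81 and -2.17 in wild-type water and -2.13, 1.67 and 1.62 in Parp1-/- water, a rise of 2.66 ± 0.82 (limma adjusted p = 0.0314) with groups that overlapped. Parp1-/- water 1 was low for decorin as it was for Col1a1, and lay above every wild-type water mouse for Ppib. Housekeeping genes rose in the same contrast, with 11 of 13 called higher and a median difference of 1.63. In wild-type DSS, where the housekeeping mean was -1.14, -0.01 and 0.42, Ppib measured -1.97, -0.44 and 0.21 and Dcn -0.65, -0.14 and 0.49. The part of the housekeeping shift in these rises was not tested.

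Of the genes for collagen cross-linking and chaperoning, Lox and Serpinh1 were not called. Lox, a cross-linking oxidase, measured 0.05, 0.28 and -0.14 in wild-type water and -0.51, 0.21 and -0.09 in Parp1-/- water. Serpinh1, the collagen chaperone, measured -0.48, -0.22 and -0.45 in wild-type water and -0.57, 1.14 and 0.99 in Parp1-/- water, a difference of 0.90 ± 0.37 (limma adjusted p = 0.0816). These 2 genes are given for their role and were chosen after their values were seen. Adamts3, a protease that trims procollagen, was the 1 gene called lower, at 0.83, 0.41 and 1.19 in wild-type water against -0.12, -0.04 and -0.06 in Parp1-/- water, by 0.88 ± 0.20 (limma adjusted p = 0.00913).

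After DSS in wild type, 3 of the 48 rose, where 8.89% of all genes did, and 1 fell, where 4.16% did. Together these were 8.33%, beside 13.0% of all genes, and the median difference of the 48 was 0.26. Itga2, a chain of the collagen receptor of epithelium and platelets, measured -2.83, -2.60 and -3.48 in water, -0.37, 0.33 and 0.51 in DSS, and between -0.22 and 0.70 on the 6 Parp1-/- arrays. Every wild-type water mouse was more than 2 log2 units below every other mouse. The rise was 3.13 ± 0.29 (limma adjusted p = 8.6e-05), and the response in Parp1-/- mice was smaller by 2.70 ± 0.40 (adjusted p = 0.00661), the 1 gene of the list called for a difference of the responses. Itgb1, its partner chain, rose by 1.88 ± 0.39 (adjusted p = 0.00985), Tgfbr1 by 0.95 ± 0.28 (adjusted p = 0.0453), and Adamts3 fell by 0.81 ± 0.20 (adjusted p = 0.0226). The housekeeping mean was low on the wild-type water arrays (-1.88, -1.13 and -1.33) and on wild-type DSS 1 (-1.14), where Itga2 measured -0.37, and its part in these rises was not tested.

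In Parp1-/- mice, limma called 0 of the 48 after DSS, where 0.00938% of all genes were called, and between genotypes in DSS also 0, where 0.0% were. In each, 0 of the 48 had an unadjusted p under 0.05, beside 609 and 593 of all 21314 genes. The genes of smallest p were Lum (-0.81 ± 0.43) and Bmp1 (-0.44 ± 0.25) in the first comparison and Ppib (0.96 ± 0.47) and P4ha1 (0.63 ± 0.33) in the second.

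**Figure D5:**
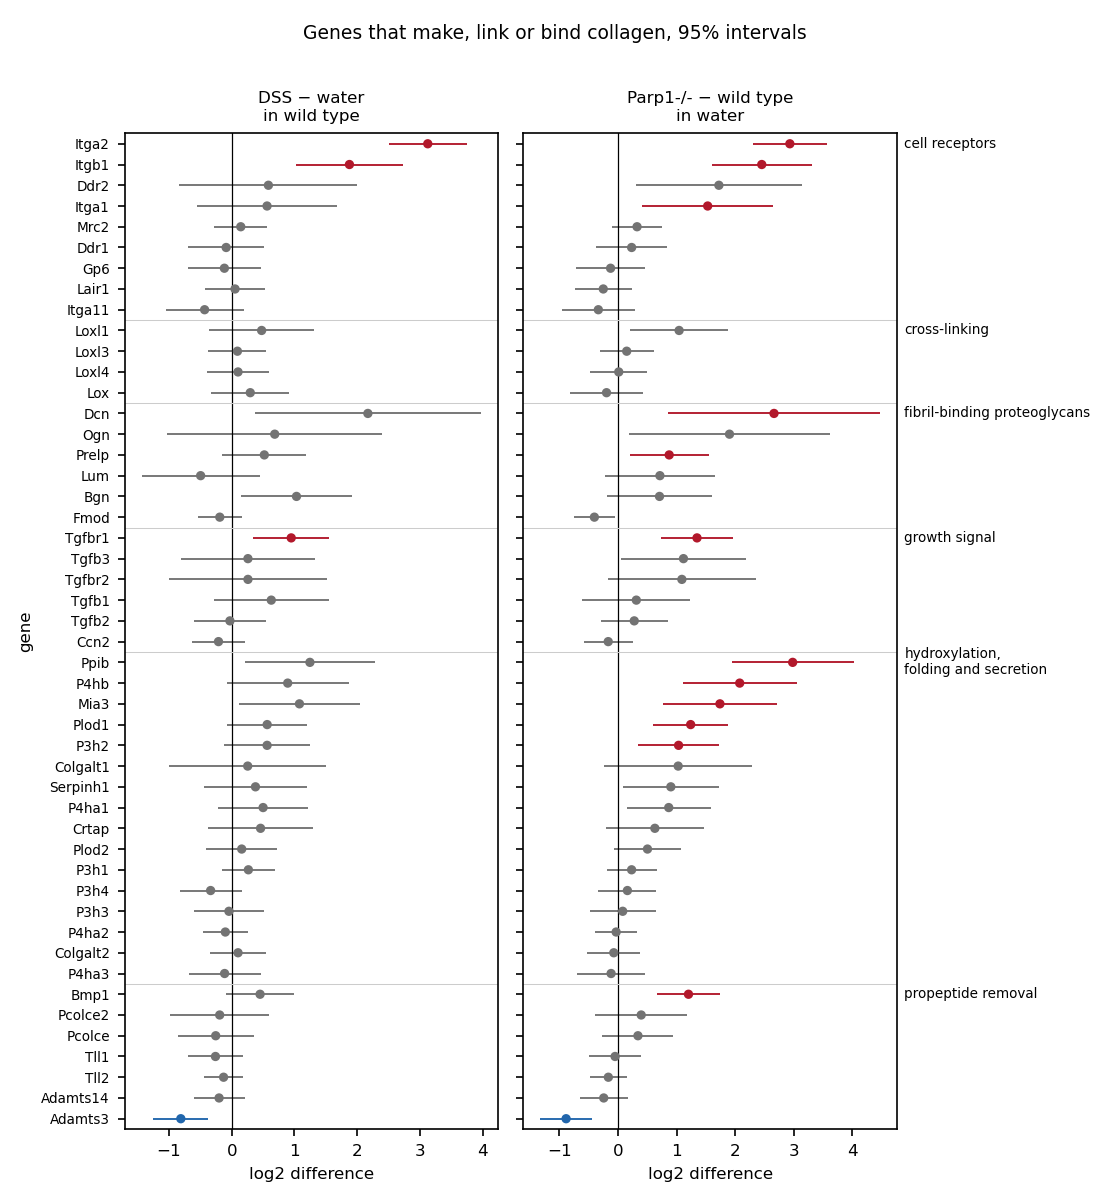
Log2 differences of group means (points) with 95% intervals of limma (lines) for the 48 genes that make, link or bind collagen, by role, for DSS against water in wild type (left) and Parp1-/- against wild type in water (right), with genes called higher in red and lower in blue. Itga2 lies at 3.13 and 2.93, Ppib at 1.25 and 2.98 and Adamts3 at -0.81 and -0.88.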

How the data were processed

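Whole-colon RNA of each mouse was run on 1 Affymetrix array after biotin labelling, per the labels' protocols. The authors deposited values of 31693 probe sets on a log scale. Not given in the sources used here are the software, background correction, normalization, log base and direction. The deposited values were taken as log2, and a higher value as more RNA. They lay between -4.83 and 5.47, with every probe set's median within 5e-07 of 0. Probe sets were named from the platform annotation: 22586 had 1 symbol, 1756 several and 7351 none. A gene is the mean of its probe sets with 1 symbol.

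With limma 3.58.1 (lmFit, eBayes; R 4.3.3), 1 model of the 4 groups was fitted to all 12 arrays, with Benjamini-Hochberg adjustment over 21314 genes, and the model was tested on simulated data. The spread between mice sets the errors, and the number of arrays limits precision. The collagens, their classes, the other lists and the tests were chosen with earlier results of these data known. Named were all called collagens, the largest difference of each class, the 4 largest in each direction, Col1a1, Col1a2, Col3a1, Col4a1 and Col4a2, Parp1, and of the 48 collagen-processing genes up to 4 called or the 2 of smallest p. Other collagens were given where their values completed a class. Alternatives were quantile normalization, equal array medians, array weights, trend and robust eBayes options, only the groups compared, each probe set alone, an adjusted p under 0.01, smooth muscle or receptor covariates, fits without arrays that stood apart, and each array left out. Python 3.11.15 with pandas 2.3.3 handled the tables, and matplotlib 3.10.9 the figures. Promoter windows came from a RefSeq table of GRCm38.p6.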

Additional observations from a re-analysis of the deposited data

Results flagged for a closer look

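The DSS responses of 3 genes in the 2 genotypes are set side by side here. For Itga2 the test of the difference passed the threshold. Col4a3 and Col7a1 did not pass it and are given because every DSS mouse lay below every water mouse in wild type and above every water mouse in Parp1-/-. DSS and water did not overlap, in either direction, in 23.6% of all genes in wild type and 12.5% in Parp1-/-. The share of all genes without overlap in both genotypes and in opposite directions was not counted. Col4a3 fell by 0.55 in wild type and was 0.17 higher in Parp1-/-, a difference of the responses of 0.73 ± 0.19 (limma adjusted p = 0.0766). Col7a1 was -0.27 in wild type and 0.15 in Parp1-/-, a difference of 0.42 ± 0.19 (limma adjusted p = 0.283). Itga2, the collagen receptor chain, rose by 3.13 in wild type and was 0.42 in Parp1-/-, a difference of -2.70 ± 0.40 (limma adjusted p = 0.00661).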

How the results depend on the processing

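No difference called in the model of all arrays changed sign under any alternative run. This does not hold for differences called only under an alternative. Col1a1 and Col3a1 were called higher in Parp1-/- water when Parp1-/- water 1 was left out. Without the 3 arrays of high smooth muscle markers, that mouse alone stands for its group. It measured -0.56 and -0.79 against wild-type water means of -0.36 and -0.51, so both differences were then negative. Percentages in brackets are the shares of all genes called in the same fit. None is given for an adjusted p under 0.01, a stricter threshold that can only lower a count. After DSS in wild type, the 4 collagens called became 0 at an adjusted p under 0.01, 0 under quantile normalization (0.971%) and 0 with only the groups compared (3.01%). They became 8 with array weights (41.2%) and 2 to 6 when each array was left out (5.68% to 32.2%). In Parp1-/- after DSS, 0 became 7 with array weights (6.84%). Between genotypes in water, 4 became 1 at an adjusted p under 0.01, 2 under quantile normalization (9.94%), 1 with array medians set equal (29.6%) and 7 with trend and robust options (34.2%). The count was 16 with array weights (50.5%), 1 with the smooth muscle covariate (7.83%) and 2, both higher, with the receptor covariate (2.15%). The count was 1 to 10 when each array was left out (13.8% to 28.9%). It was 0 without the 3 arrays of high smooth muscle markers, an alternative chosen after seeing the data that leaves 1 mouse in Parp1-/- water, so the loss of calls says little about the differences. Col4a3 stayed between -0.69 and -0.50 in that comparison over all settings. Between genotypes in DSS, 0 became 8 with array weights (29.0%). For the difference of the responses, 0 became 8 with array weights, where 7675 of all genes were called. It became 1 with the receptor covariate (2.63%) and 0 to 3 when each array was left out (0.83% to 14.9%). The array weights were estimated by a fit that did not fully converge, and the cause of these changes was not tested. Of the single-gene entries, 59 lost a call, 35 gained one, 66 moved without a call and 1156 stayed the same. Same meant still called in the same direction, whatever the size, or uncalled with a change smaller than the gene's spread within groups. Of the 1156, 71 came from the stricter threshold, where no value was recomputed. Another 69 came from each probe set alone, for genes of 1 probe set, whose difference could not change. No paired analysis was possible because the labels give no replicate numbers, and numbers assigned in accession order pair no mice. Signal over background is unknown for centred values, so a low gene and an unexpressed gene cannot be told apart.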
